A study of Mus musculus with 8 samples.

Results

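The genes of the Wnt ligands, their receptors and the beta-catenin pathway were examined in single endocardial cells with and without *Sox17*. They were chosen by gene name: the *Wnt*, *Fzd*, *Sfrp* and *Dvl* genes, with *Lrp5*, *Lrp6*, *Ror1*, *Ror2*, *Dkk1*, *Dkk2*, *Dkk3*, *Apc*, *Axin1*, *Axin2*, *Gsk3b*, *Csnk1a1*, *Ctnnb1*, *Tcf7*, *Tcf7l2* and *Lef1*. This gave 52 genes of the 35526 gene names with a usable measurement, read by 69 probes, and where several probes read 1 gene the one with the highest mean signal stands for it. The 8 arrays each held the amplified cDNA of 1 endocardial cell from the heart at E8.5 (9 somites), 4 of them WT and 4 *Sox17* KO. All 8 cells carried *Sox17* fl/fl alleles, the WT cells with *Mesp1*+/+ and the KO cells with *Mesp1* Cre/+, so that in KO embryos Cre acted in the early mesoderm that expresses *Mesp1* and in its descendants, and 1 *Mesp1* allele of the KO cells carried Cre. The cells were dissociated with trypsin and identified by PCR of marker genes on their cDNA, and the embryo each cell came from is not named. A genotype was therefore treated as 1 sample, no test of a difference between genotypes was made, and differences are given as the mean log2 value of KO cells minus that of WT cells beside the pooled SD between cells of the same genotype.

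Wnt proteins are secreted lipid-modified ligands that bind Frizzled receptors together with the coreceptors LRP5 or LRP6. In the beta-catenin branch, Dishevelled then holds back a complex of APC, AXIN, GSK3 and casein kinase 1 that marks beta-catenin for destruction, and the beta-catenin that accumulates enters the nucleus and works with TCF/LEF factors. Other Wnt signals run without beta-catenin, in part through ROR receptors, and in the early heart the balance of both kinds of signal is known to bear on the specification and growth of cardiac cells.

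Each value is the log2 of a probe signal after the arrays were scaled to each other, with signals under 50 set to 50, so that the lowest possible value was 5.64 and cells at this floor have no order. A gene was called detected in a cell where the scanner software called its probe well above background, which can also hold for a signal under the floor. Values can be compared between cells for 1 gene but not between genes, since each probe responds differently, and a probe reports 1 stretch of a transcript and not protein. Between 11370 and 18175 of 55295 probes were well above background per cell. WT and KO cells lay in separate columns of 1 slide, so that slide position and genotype cannot be told apart. *Sox17* itself gave no check of the genotype, since its 2 probes were well above background in 0 of 8 cells. Of 10 endothelial or endocardial markers, 7 to 10 were detected in each WT cell and 6 to 9 in each KO cell, *Cdh5* and *Kdr* among them in all 8 (summed scaled signal 10037 to 35685 in WT, 7045 to 79403 in KO). Of 9 cardiomyocyte markers, 3 to 7 were detected in each cell of either genotype, with a summed scaled signal of 318 to 34056 in WT and 1001 to 48719 in KO cells, and *Tbx5* was detected in none. *Acta2* and *Tagln*, but not *Cnn1*, of the 3 smooth muscle markers were detected in all 8 cells (summed signal 66.2 to 14376 in WT, 57.3 to 7724 in KO). No endoderm marker was detected, and of the blood and mesenchyme markers only *Hbb-y* (KO cell 4, under the floor) and *Twist1* (WT cells 2 and 4, KO cell 4) were, with a summed signal of the mesenchyme list of 15.6 to 326 in WT and 15.0 to 2425 in KO cells. Within the lists, 2 markers were at least 5-fold higher in KO cells, both with overlap. They were *Emcn*, an endothelial surface protein (4.07, pooled SD 2.58), and *Actc1*, a cardiac actin (2.67, pooled SD 2.79), which was detected in all 8 cells. No marker was at least 5-fold lower. The endothelial or endocardial list was split, with 5 genes up in KO, 5 down and a median difference of -0.06. Its largest falls were those of *Tek* (-2.16, pooled SD 1.88) and *Nfatc1* (-1.58, pooled SD 2.23). *Npr3* was detected in 3 WT and 0 KO cells. The part of these markers in the results, the 5-fold differences of other pathway genes among them, was not tested.

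In all, 33 of the 52 Wnt pathway genes (63.5%) were detected in at least 1 cell, against 20270 of all 35526 genes (57.1%), and 19 were detected in none. Above the floor in some cell were 26 of the 52 members, against 40.9% of all genes, *Apc* among them through WT cell 3, where it was not called detected. In all 8 cells 8 members were detected (15.4%), against 17.6% of all genes, and 4 of them, *Wnt1*, *Lrp5*, *Tcf7l2* and *Ctnnb1*, were above the floor in all 8 (7.69%), against 9.71%. WT cells 1 to 4 had 11, 19, 15 and 22 members detected, and the 4 KO cells had 15, 16, 24 and 17. The medians were 17 and 16.5, and the genotypes overlapped. The depth of the arrays differed as well, and its part in these counts was not tested: 25.5%, 36.4%, 32.1% and 39.9% of all genes were detected in the 4 WT cells and 31.6%, 28.8%, 37.2% and 36.1% in the 4 KO cells.

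**Figure D1:**
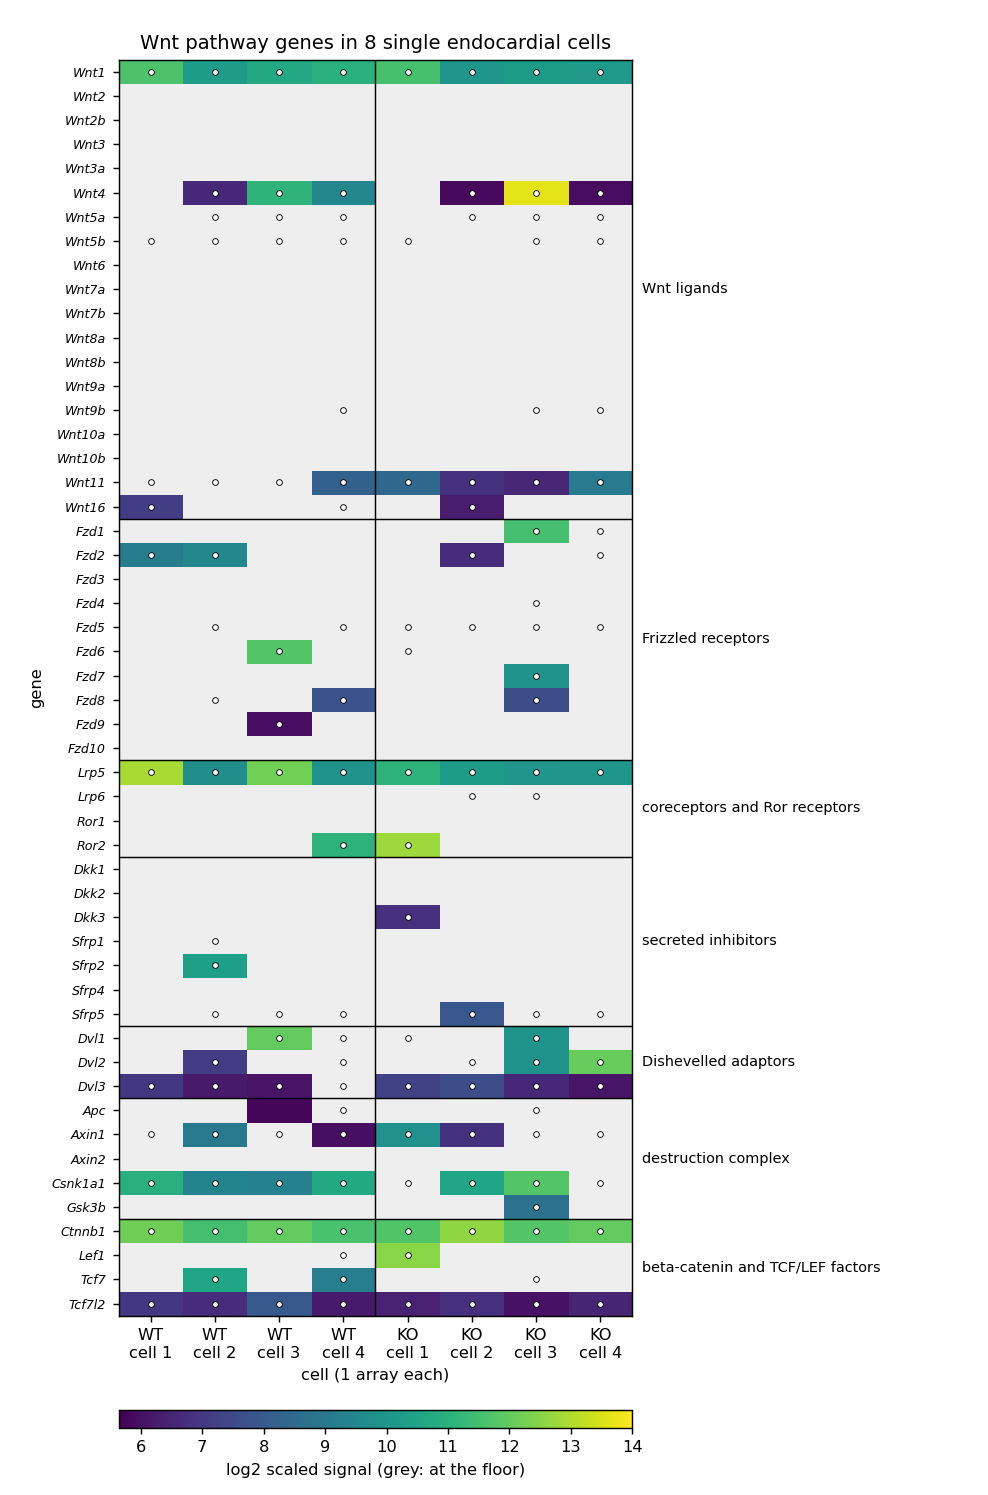
Log2 scaled signal of all 52 genes (lines, grouped by role) in 4 WT and 4 KO cells (columns); grey marks a signal at the floor of 5.64 and a white dot a cell in which the probe was well above background. Colours compare cells for 1 gene, not genes. The dots fill the line for *Wnt1*, *Wnt11*, *Lrp5*, *Dvl3*, *Axin1*, *Csnk1a1*, *Ctnnb1* and *Tcf7l2*, and the coloured boxes of most other genes stand in 1 or 2 cells.

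On the probe that stands for each gene, none of the 52 members differed at least 5-fold between the means of the genotypes, in either direction, where 3.23% of the 20270 detected genes were at least 5-fold higher in KO cells and 3.27% at least 5-fold lower. Likewise, in 0 of 33 detected members did all KO cells lie above all WT cells, or all below, against 1.13% and 0.252% of the detected genes. The difference of means exceeded the pooled SD between cells for 4 of 33 members (*Wnt11* and *Dvl3*, higher in KO, and *Fzd2* and *Tcf7*, lower in KO), and 12.9% of all detected genes did so. The median difference over the 33 members was 0.00, with 12 higher in KO, 14 lower and the rest at the floor in all cells, and the median over all detected genes was also 0.00. The median pooled SD of the members was 1.02 on the log2 scale, against 0.72 for all detected genes. Thus, with 4 cells per genotype, a difference of the size of the cell-to-cell spread could not be told from it.

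**Figure D2:**
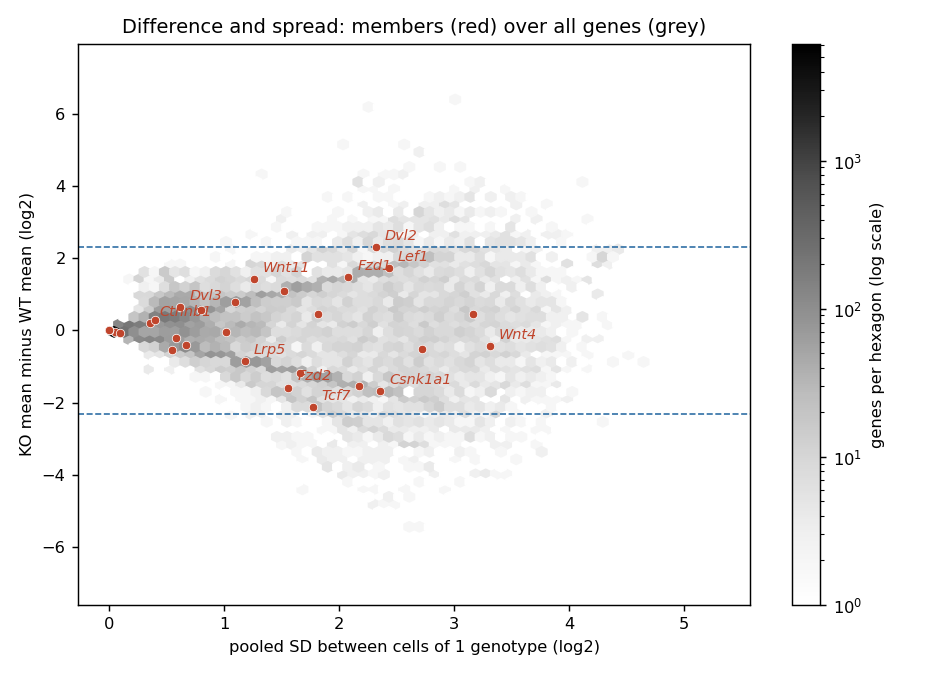
Mean of KO minus mean of WT cells (vertical axis, log2) against the pooled SD between cells (horizontal axis, log2) for the 33 detected members (red points) over all 20270 detected genes (grey hexagons, darker for more genes on a log scale). Dashed lines mark 5-fold (2.32 on the log2 scale). All members lie between the lines, with *Dvl2* at 2.31 and *Tcf7* at -2.12 nearest to them.

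The counts of 0 changed when some cells were left out. *Dvl2* passed 5-fold without WT cell 2 (2.68), KO cell 1 (3.21) or KO cell 2 (3.21). *Tcf7* passed it without WT cell 1 or WT cell 3 (-2.83 for each), and *Csnk1a1* passed it without KO cell 2 (-2.40) or KO cell 3 (-2.80). *Wnt4* did so only without KO cell 3 (-2.41). The genotypes of *Wnt11* did not overlap without WT cell 4, with a difference of 2.06, nor those of *Wnt1* without KO cell 1, with a difference of -0.79.

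Among the 19 Wnt ligands, 7 were detected in some cell and 4 were above the floor in some cell. *Wnt2*, *Wnt2b*, *Wnt3*, *Wnt3a*, *Wnt6*, *Wnt7a*, *Wnt7b*, *Wnt8a*, *Wnt8b*, *Wnt9a*, *Wnt10a* and *Wnt10b* were detected in none of the 8 cells. *Wnt1*, the founding ligand of the family and best known from the developing brain, was detected in all 8 cells through a probe at chromosome 15, 98624201 to 98624260 (mm9). Its values were 11.66, 10.23, 10.69 and 10.95 over WT cells 1 to 4, against 11.57, 9.99, 10.18 and 10.12 over KO cells 1 to 4. WT cell 1 and KO cell 1 were the highest, the genotypes overlapped, and the difference was -0.42 on the log2 scale (pooled SD between cells 0.67, 4 and 4 cells). A second *Wnt1* probe, at chromosome 15, 98623276 to 98623335 (mm9), was well above background in 0 of 8 cells, so that the level of *Wnt1* stood on 1 of its 2 probes.

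*Wnt11*, a ligand that mostly acts without beta-catenin and takes part in heart formation, was also detected in all 8 cells (chromosome 7, 106001985 to 106002045, mm9). Its values were 5.64, 5.64, 5.64 and 8.24 over WT cells 1 to 4, against 8.42, 6.83, 6.53 and 9.04 over KO cells 1 to 4. All 4 KO cells stood above the floor, as did WT cell 4, while WT cells 1 to 3 lay at it. The KO mean was higher by 1.41 on the log2 scale (pooled SD between cells 1.26, 4 and 4 cells), and WT cell 4 was above KO cells 2 and 3. Before the floor the scaled signals were 43.5, 13.2, 21.1 and 303 over WT cells 1 to 4, against 344, 114, 92.1 and 525 over KO cells 1 to 4, so that WT cells 1 to 3 were also the lowest on that scale.

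*Wnt4* was detected in 3 cells of each genotype, with values of 5.64, 6.60, 11.09 and 9.51 over WT cells 1 to 4, against 5.64, 5.86, 13.67 and 5.91 over KO cells 1 to 4. KO cell 3 stood far above the other 7 cells and WT cells 3 and 4 came next, and the difference was -0.44 on the log2 scale (pooled SD between cells 3.31, 4 and 4 cells). Its second probe was detected in WT cells 2 to 4 and in KO cell 3, the same 4 cells that were highest with the first. On that probe WT cells 2 to 4 had 8.32, 6.48 and 9.16 and KO cell 3 had 9.11. The lead of KO cell 3 over the WT cells thus stood on 1 of the 2 probes. *Wnt5a* and *Wnt5b*, ligands best known for signals without beta-catenin, were detected in 6 and 7 cells but never above the floor. The scaled signals of *Wnt5a* were 5.12, 16.9, 34.2 and 17.4 over WT cells 1 to 4, against 13, 25, 9.07 and 33.7 over KO cells 1 to 4. Those of *Wnt5b* were 24.8, 13.1, 14.7 and 12.4 over WT cells 1 to 4, against 17.2, 18.9, 17.1 and 17.6 over KO cells 1 to 4, and both genes overlapped between genotypes. *Wnt9b* was detected in 3 cells, all under the floor, and *Wnt16* in 3 cells, with a highest value of 7.16 in WT cell 1.

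Of the 10 Frizzled receptors, 8 were detected in some cell and none in all, and *Fzd3* and *Fzd10* were detected in no cell. *Fzd5* was detected most often, in 6 cells, among them all 4 KO cells, but always under the floor, with scaled signals of 16.5, 6.54, 2.98 and 7.97 over WT cells 1 to 4, against 21.6, 24.5, 8.33 and 11.7 over KO cells 1 to 4. The other receptors were seen in 1 to 4 cells each, and the values named for them were chosen after they were seen. *Fzd2* reached 9.19 and 9.50 in WT cells 1 and 2 and 6.71 in KO cell 2, with the other 5 cells at the floor and a difference of -1.59 on the log2 scale (pooled SD between cells 1.56, 4 and 4 cells). A second *Fzd2* probe was detected in WT cell 1 only (6.16), with a difference of -0.13. KO cell 3 held the highest values of *Fzd1* (11.54) and *Fzd7* (9.95) and WT cell 3 held those of *Fzd6* (11.77) and *Fzd9* (5.93). *Fzd8* was above the floor in 1 cell of each genotype, at 7.77 in WT cell 4 and 7.62 in KO cell 3. With WT cells not well above background, the KO mean of *Fzd1* was 2.78-fold higher and that of *Fzd7* 2.11-fold, each with KO cell 3 alone above the floor. The size of both folds depends on the floor, at which the other KO cells lay too. A second *Fzd7* probe was detected in WT cells 1 and 2 instead, under the floor, so that the probes of this gene did not mark the same cells. *Fzd4*, a receptor of endothelial cells, was detected only in KO cell 3, under the floor.

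*Lrp5* was above the floor in all 8 cells (chromosome 19, 3584971 to 3585030, mm9), with values of 12.91, 9.76, 12.23 and 9.92 over WT cells 1 to 4, against 11.06, 10.27, 10 and 10.07 over KO cells 1 to 4. WT cells 1 and 3 were the highest, WT cells 2 and 4 the lowest, and all KO cells lay within the range of the WT cells. The difference was -0.85 on the log2 scale (pooled SD between cells 1.18, 4 and 4 cells). *Lrp6* was detected in KO cells 2 and 3, under the floor. Of the receptor tyrosine kinases, *Ror1* was detected in no cell and *Ror2*, a receptor for WNT5A, in 1 cell of each genotype, at 11.03 in WT cell 4 and 12.78 in KO cell 1.

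Of the 7 secreted inhibitors, 4 were detected in some cell. *Dkk1*, *Dkk2* and *Sfrp4* were detected in no cell. *Sfrp5*, a secreted protein that binds Wnt ligands, was detected in 3 cells of each genotype but was above the floor only in KO cell 2. Its values were 5.64, 5.64, 5.64 and 5.64 over WT cells 1 to 4, against 5.64, 7.90, 5.64 and 5.64 over KO cells 1 to 4, with a difference of 0.56 on the log2 scale (pooled SD between cells 0.80, 4 and 4 cells). *Sfrp2* was above the floor only in WT cell 2 (10.35) and *Dkk3* only in KO cell 1 (6.77), and *Sfrp1* was detected only in WT cell 2, under the floor.

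All 3 Dishevelled genes, which carry the signal from the receptors into the cell, were detected. *Dvl3* was detected in all 8 cells (chromosome 16, 20531470 to 20531529, mm9), with values of 6.98, 6.23, 6.07 and 5.64 over WT cells 1 to 4, against 7.25, 7.61, 6.56 and 6.10 over KO cells 1 to 4. KO cells 1 and 2 were the highest and WT cell 4 lay at the floor, and the KO mean was higher by 0.65 on the log2 scale (pooled SD between cells 0.62, 4 and 4 cells) with overlap. *Dvl2* came nearest to 5-fold, with values of 5.64, 7.09, 5.64 and 5.64 over WT cells 1 to 4, against 5.64, 5.64, 9.94 and 12.05 over KO cells 1 to 4. Only KO cells 3 and 4 and WT cell 2 stood above the floor, and the difference of 2.31 on the log2 scale (pooled SD between cells 2.32, 4 and 4 cells) equalled 4.97-fold. *Dvl1* was above the floor in 1 cell of each genotype, at 12.00 in WT cell 3 and 9.97 in KO cell 3.

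**Figure D3:**
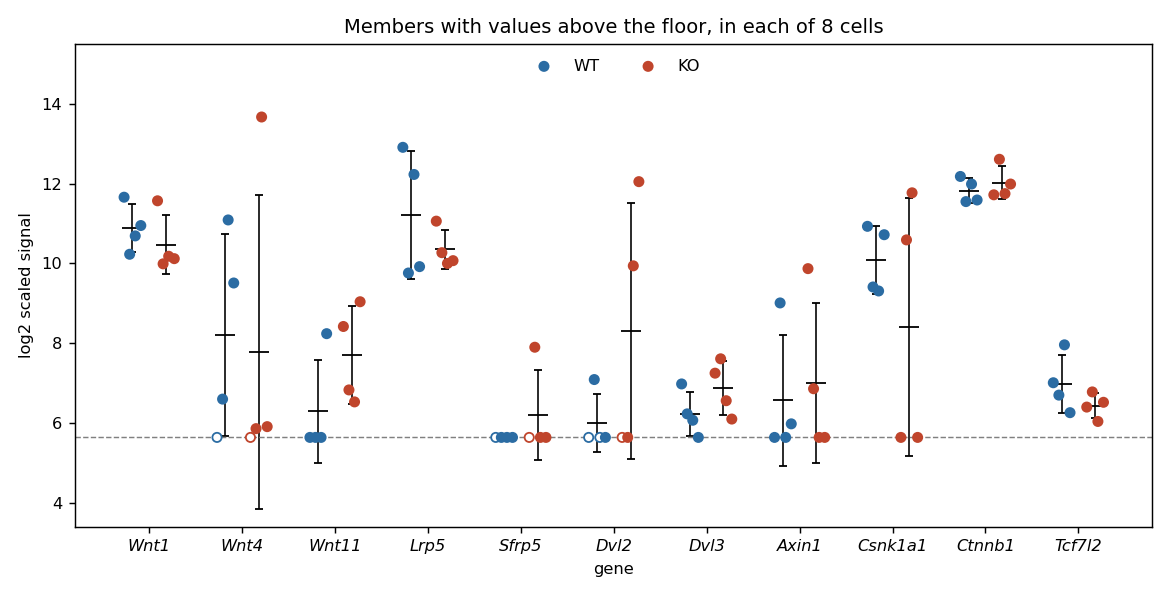
Log2 scaled signal in each WT (blue) and KO (red) cell of the 11 genes given in full that were above the floor in some cell; filled circles are cells in which the probe was well above background, and bars give the mean and SD over 4 cells. The dashed line is the floor of 5.64. *Ctnnb1* lies between 11.55 and 12.61 in all cells, while *Wnt4*, *Csnk1a1* and *Dvl2* run from the floor to above 11 within 1 genotype.

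In the destruction complex, *Csnk1a1*, the casein kinase that places the first phosphate on beta-catenin, was detected in all 8 cells. Its values were 10.93, 9.41, 9.31 and 10.72 over WT cells 1 to 4, against 5.64, 10.59, 11.77 and 5.64 over KO cells 1 to 4. The 4 WT cells lay close together, whereas KO cells 1 and 4 were at the floor and KO cells 2 and 3 within or above the WT range. The difference was -1.68 on the log2 scale (pooled SD between cells 2.36, 4 and 4 cells). Its second probe gave 9.58, 10.01, 8.31 and 9.14 in WT cells 1 to 4 and stood above the floor in KO cell 2 only (10.30), with a difference of -2.45, which is past 5-fold. On that probe KO cell 2 lay above all WT cells, so that the genotypes overlapped.

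*Axin1*, the scaffold of the complex, was detected in all 8 cells, with values of 5.64, 9.01, 5.64 and 5.98 over WT cells 1 to 4, against 9.87, 6.86, 5.64 and 5.64 over KO cells 1 to 4. KO cell 1 and WT cell 2 were the highest, 2 cells of each genotype lay at the floor, and the difference was 0.44 on the log2 scale (pooled SD between cells 1.82, 4 and 4 cells). *Axin2*, the scaffold gene that beta-catenin signaling switches on in most tissues, was detected in no cell by either of its 2 probes. Of *Gsk3b*, 1 of 3 probes was above the floor in KO cell 3 (8.76) and another was detected in WT cell 4, under the floor. *Apc* was detected in WT cell 4 and KO cell 3, under the floor in both, and lay above the floor in WT cell 3 alone (5.79), where it was not called detected.

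*Ctnnb1*, the gene of beta-catenin, had the lowest spread of the 4 members above the floor in every cell (chromosome 9, 120869274 to 120869333, mm9). Its values were 12.18, 11.55, 11.99 and 11.59 over WT cells 1 to 4, against 11.72, 12.61, 11.75 and 11.99 over KO cells 1 to 4. They spanned 1.05 on the log2 scale over the 8 cells, with KO cell 2 the highest, and the difference was 0.19 on the log2 scale (pooled SD between cells 0.36, 4 and 4 cells). The SD over all 8 cells was 0.35. Of the 3448 genes above the floor in all 8 cells, 1.02% had a lower SD, and their median SD was 0.85. This rank depended on the scaling, since 3.83% of genes had a lower SD with quantile normalization, 11.1% with a floor of 200, 18.2% with the percentile taken over all probes and 28.0% with the floor set before scaling, alternatives that were added after the values were seen. Leaving out each cell in turn gave 0.087% (without KO cell 2) to 2.78% (without WT cell 1), with 1.54%, 1.74% and 1.77% without WT cell 2, WT cell 3 and KO cell 3. Over the same 3448 genes the median difference between genotypes was 0.27, so that *Ctnnb1*, at 0.19, lay close to it.

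**Figure D4:**
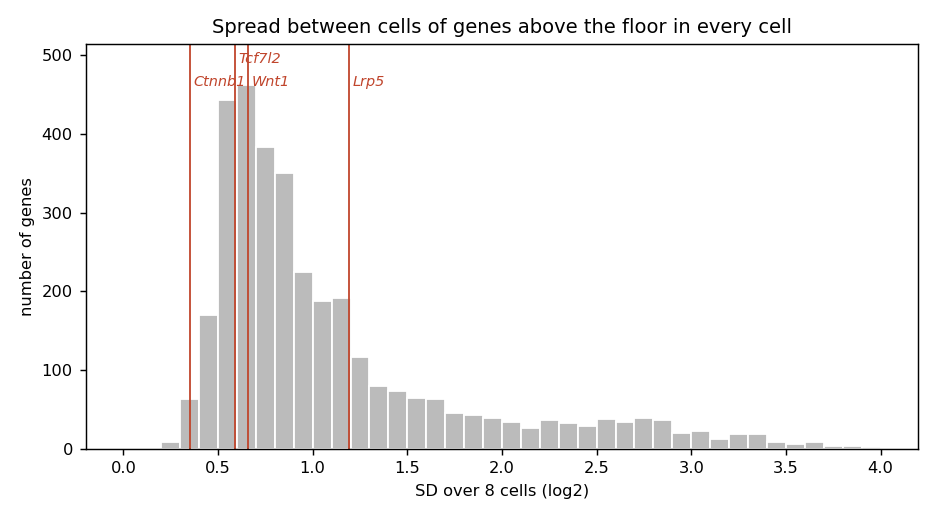
Number of genes (vertical axis) by SD over the 8 cells (horizontal axis, log2) for the 3448 genes above the floor in every cell; red lines mark the 4 members among them. *Ctnnb1* lies at 0.35 on the low edge, *Tcf7l2* at 0.59, *Wnt1* at 0.66 and *Lrp5* at 1.19, against a median of 0.85.

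Of the TCF/LEF factors, *Tcf7l2* was above the floor in all 8 cells (chromosome 19, 55817272 to 55817331, mm9), with values of 7.01, 6.70, 7.96 and 6.26 over WT cells 1 to 4, against 6.40, 6.78, 6.04 and 6.52 over KO cells 1 to 4. WT cell 3 was the highest and KO cell 3 the lowest, and the difference was -0.55 on the log2 scale (pooled SD between cells 0.55, 4 and 4 cells). With the arrays scaled to the 75th percentile, which lowered the median difference of the 3448 genes by 0.39, all KO cells of *Tcf7l2* lay below all WT cells. Its 2 other probes were detected in 1 and 0 cells. *Tcf7* was above the floor in WT cell 2 (10.55) and WT cell 4 (9.23) and in no KO cell, with a difference of -2.12 on the log2 scale (pooled SD between cells 1.77, 4 and 4 cells). WT cells 1 and 3 lay at the floor as well, and *Tcf7* was also detected in KO cell 3, under the floor. A second *Tcf7* probe was detected only in WT cell 4 (7.15). *Lef1* was above the floor in KO cell 1 alone, at 12.52.

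KO cell 3, which had the most members above the floor (14), was the only cell in which *Fzd1*, *Fzd7* and *Gsk3b* stood above the floor and had the top value of *Wnt4*, on the probe that stands for each gene. It ranked second in depth, with 37.2% of all genes detected, and was the cell with the most members detected (24). By genes above the floor (21.3%) it came after WT cell 4 (23.2%), WT cell 2 (22.4%) and KO cell 4 (22.1%). WT cell 3 was likewise the only cell above the floor for *Apc*, *Fzd6* and *Fzd9*. Of the 26 members above the floor in some cell, 10 were so in exactly 1 cell (38.5%), and these cells were of both genotypes. Of the 14539 genes of the whole array above the floor in some cell, 3838 were so in exactly 1 (26.4%). With 1 cell per array, a transcript missing from a cell and a transcript lost in amplification cannot be told apart.

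Of the 15 members with several probes, 7 had more than 1 probe detected, each in at least 1 cell but not always the same cell (*Csnk1a1*, *Fzd2*, *Fzd7*, *Gsk3b*, *Tcf7*, *Tcf7l2* and *Wnt4*). A further 6 (*Apc*, *Fzd5*, *Lef1*, *Lrp6*, *Wnt1* and *Wnt16*) had only 1, and *Axin2* and *Wnt8b* had none. For *Fzd7* and *Gsk3b* no cell had more than 1 probe detected.

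Another 62 genes of the pathway that are not members were taken from 7 lists by role. Of these, 40 were detected in some cell, 3 were at least 5-fold higher in KO cells (7.5% of those detected) and 4 at least 5-fold lower (10%), beside 3.23% and 3.27% of all detected genes. In none of them did the genotypes separate without overlap. Of the 4 lower genes, *Adgra2* is counted by the array's name for its probes. *Wls*, which carries Wnt ligands to the cell surface, had values of 5.64, 5.64, 8.95 and 8.07 over WT cells 1 to 4, against 5.64, 9.74, 11.19 and 11.33 over KO cells 1 to 4. KO cells 2 to 4 were above all WT cells and KO cell 1 lay at the floor, with a difference of 2.40 on the log2 scale (pooled SD between cells 2.23, 4 and 4 cells). *Vangl2*, of the planar polarity branch, was detected in all 8 cells, at 7.54, 7.40, 7.94 and 7.50 over WT cells 1 to 4, against 12.92, 8.89, 7.58 and 10.29 over KO cells 1 to 4. Its WT cells lay within a narrow range, KO cells 1, 2 and 4 lay above them and KO cell 3 among them, with a difference of 2.33 on the log2 scale (pooled SD between cells 1.62, 4 and 4 cells). Its second probe was above the floor in WT cell 4 (5.79) and in KO cell 1 (13.12), which was also the highest cell with the first. *Tspan12*, a Frizzled 4 partner, was detected in 0 WT cells and 3 KO cells, 2 of them above the floor (9.75 and 10.92), and its KO mean was at least 5.09-fold higher. *Wls* was under 5-fold without WT cell 1 or 2 (1.92 each), KO cell 2 (2.31), KO cell 3 (1.83) or KO cell 4 (1.78), *Vangl2* without WT cell 1 (2.31), WT cell 2 (2.26), WT cell 4 (2.29), KO cell 1 (1.33) or KO cell 4 (2.20), and *Tspan12* without KO cell 3 (1.76) or KO cell 4 (1.37). *Vangl2* was also under 5-fold with each other scaling (1.94 to 2.15), with normexp background correction (1.98), with a floor of 200 (2.22) and with the mean of its probes (2.08). *Wls* was under it with the 75th percentile (2.15), the percentile of all probes (2.19), the floor set before scaling (2.24) and a floor of 200 (1.90), and *Tspan12* with the 75th percentile and quantile normalization (2.23 each) and a floor of 200 (1.35).

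The largest difference of the 62 was that of *Tle3*, a corepressor that binds TCF factors in the absence of beta-catenin. Its values were 11.32, 11.85, 15.09 and 6.16 over WT cells 1 to 4, against 7.70, 5.64, 5.64 and 5.64 over KO cells 1 to 4, with a difference of -4.95 on the log2 scale (pooled SD between cells 2.71, 4 and 4 cells). WT cell 4 lay below KO cell 1, and the other 3 WT cells above all KO cells. Leaving out each cell in turn gave -6.59 to -3.62, at least 5-fold each time. Both probes that the array names *Adgra2* lie on chromosome 5 (the chosen one at 50351414 to 50351473, mm9). Whether they read the coreceptor of brain vessels for WNT7 ligands known by that name was not checked. *Adgra2* had values of 5.64, 11.31, 11.08 and 10.67 over WT cells 1 to 4, against 5.64, 5.64, 5.64 and 9.98 over KO cells 1 to 4 and a difference of -2.95 on the log2 scale (pooled SD between cells 2.45, 4 and 4 cells). WT cells 2 to 4 and KO cell 4 were above the floor, and it too was at least 5-fold lower without any 1 cell, from -4.29 to -2.40, though its second probe was detected in no cell. *Csnk1d*, another casein kinase, had values of 13.18, 5.64, 14.05 and 12.19 over WT cells 1 to 4, against 7.06, 5.64, 12.87 and 8.67 over KO cells 1 to 4. It was at the floor in 1 cell of each genotype, and the difference was -2.70 on the log2 scale (pooled SD between cells 3.49, 4 and 4 cells). A second *Csnk1d* probe was above the floor in WT cell 3 (11.05) and WT cell 4 (8.43) only. Its difference of -2.05 (pooled SD 1.83) was under 5-fold. *Myc*, a growth regulator and known target, had values of 5.64, 5.98, 11.57 and 9.74 over WT cells 1 to 4, against 5.91, 5.64, 5.64 and 5.64 over KO cells 1 to 4. WT cells 3 and 4 stood clear of the others, with a difference of -2.52 on the log2 scale (pooled SD between cells 2.05, 4 and 4 cells). *Csnk1d* was under 5-fold without WT cell 1 (-2.07), WT cell 3 (-1.78), KO cell 1 (-2.20) or KO cell 2 (-1.73), and *Myc* without WT cell 3 (-1.41) or WT cell 4 (-2.02). With other settings *Adgra2* was under 5-fold with the mean of its probes (-1.47) and a floor of 200 (-1.95), *Csnk1d* with normexp (-2.24), and *Myc* with quantile normalization (-2.26) and a floor of 200 (-1.50), while *Tle3* passed it with every setting run (-6.69 to -3.62).

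**Figure D5:**
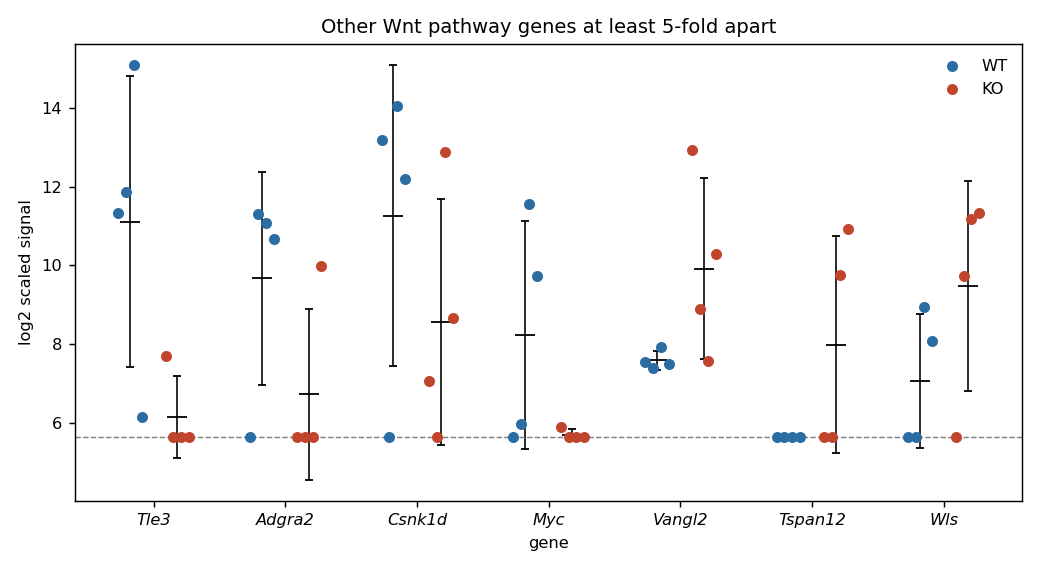
Log2 scaled signal in each WT (blue) and KO (red) cell of the 7 other pathway genes at least 5-fold apart between the means; bars give the mean and SD over 4 cells and the dashed line is the floor of 5.64. *Tle3* has 3 WT cells above 11 and 3 KO cells at the floor, and in every gene some WT and KO cells overlap.

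Of 7 genes of secretion and agonists, 2 were detected (*Wls* and *Porcn*), and none of the 4 R-spondin genes was. Of 12 coreceptors and genes of receptor turnover 7 were detected, of 12 nuclear genes 10, and of 8 planar polarity genes 5, while all 12 of the wider destruction complex and cytoplasm were. *Porcn*, the enzyme that adds the lipid to Wnt ligands, was detected in all 8 cells under the floor. *Dkkl1*, *Ptk7*, *Apc2*, *Bcl9l*, *Tnks2*, *Tle2*, *Aes*, *Notum* and *Vangl2* were also detected in all 8. *Notum*, a secreted enzyme that removes the lipid from Wnt ligands, lay between 11.76 and 13.68 in all 8 cells, with a difference of -0.11 (pooled SD 0.66). *Aes* and *Tle2*, of the Groucho family of corepressors as *Tle3* is, were above the floor in all 8 cells with differences of -0.13 (pooled SD 0.93) and -0.14 (pooled SD 1.52). A second *Tle2* probe was above the floor in KO cell 1 alone (12.18), with a difference of 1.63 (pooled SD 2.31). The level of *Tle2* in the other cells thus stood on the first probe alone. *Tle1*, of the same family, had values of 14.58, 5.64, 12.06 and 10.43 over WT cells 1 to 4, against 10.28, 5.64, 12.07 and 5.64 over KO cells 1 to 4. Its genotypes overlapped, and its difference of -2.27 (pooled SD 3.53) was just under 5-fold, which it passed with the 75th percentile, with a floor of 10, and without WT cell 2, WT cell 4, KO cell 1 or KO cell 3. *Tle4* was detected in KO cell 3 alone, under the floor. *Cby1*, of the nuclear genes but not of this family, lay nearer to 5-fold than *Tle1*, at -2.29 (pooled SD 1.87), and was above the floor in WT cells 2 and 3 alone. *Cby1* passed 5-fold with the 75th percentile, the percentile of all probes, the floor set before scaling and a floor of 10, and without WT cell 1 or WT cell 4.

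Of 12 genes known as feedback or target genes of beta-catenin signaling, members among them, 7 were detected in some cell. *Axin2*, *Sp5*, *Lgr5*, *Znrf3* and *Dkk1* were detected in none, *Notum* in all 8, and *Ccnd1* in 7. No gene of this list was at least 5-fold higher in KO cells, 1 was at least 5-fold lower (*Myc*), and the median difference of the list was 0.00, a value set by the 5 genes detected in none. Among the 7 detected, 5 were lower in KO cells and 2 higher, where 6440 of the 20270 detected genes were lower and 7986 higher. The median of the 7 was -0.63, the value of *Rnf43*, which was above the floor in WT cell 3 alone. *Lef1* was above the floor in 1 cell and *Nkd1* and *Tcf7* in 2 cells each.

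Promoters of 4 genes are shown because these genes differed in how many cells had signal: *Ctnnb1*, with a narrow range in all 8 cells, *Wnt11*, above the floor in all KO cells and in WT cell 4, and *Axin2* and *Dkk1*, targets detected in none. They are RefSeq sequences of GRCm38.p6, 250 bases before to 50 after the first listed start of each gene, 5′ to 3′ on the gene's strand, with TCF motifs (CTTTGNN on either strand, where each N is A or T) in capitals.
Ctnnb1 (chr9:120933150-120933449, plus strand): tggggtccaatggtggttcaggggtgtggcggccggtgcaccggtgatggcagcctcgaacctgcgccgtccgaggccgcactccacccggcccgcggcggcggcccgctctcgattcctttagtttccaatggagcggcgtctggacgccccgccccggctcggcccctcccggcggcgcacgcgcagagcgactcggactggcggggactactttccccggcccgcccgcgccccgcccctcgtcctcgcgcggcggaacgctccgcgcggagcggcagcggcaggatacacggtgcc
Axin2 (chr11:108920099-108920398, plus strand): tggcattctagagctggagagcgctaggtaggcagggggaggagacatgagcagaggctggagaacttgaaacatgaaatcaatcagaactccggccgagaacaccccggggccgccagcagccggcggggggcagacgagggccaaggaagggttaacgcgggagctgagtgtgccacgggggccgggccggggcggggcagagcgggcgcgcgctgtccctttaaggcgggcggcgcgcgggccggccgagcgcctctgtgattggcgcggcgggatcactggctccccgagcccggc
Wnt11 (chr7:98834862-98835161, plus strand): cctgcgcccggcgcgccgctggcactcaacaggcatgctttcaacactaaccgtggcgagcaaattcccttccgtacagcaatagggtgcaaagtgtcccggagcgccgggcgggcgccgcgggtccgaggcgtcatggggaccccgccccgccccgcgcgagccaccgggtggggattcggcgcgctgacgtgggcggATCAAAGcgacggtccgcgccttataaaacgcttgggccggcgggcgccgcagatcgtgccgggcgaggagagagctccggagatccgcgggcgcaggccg
Dkk1 (chr19:30549447-30549746, minus strand): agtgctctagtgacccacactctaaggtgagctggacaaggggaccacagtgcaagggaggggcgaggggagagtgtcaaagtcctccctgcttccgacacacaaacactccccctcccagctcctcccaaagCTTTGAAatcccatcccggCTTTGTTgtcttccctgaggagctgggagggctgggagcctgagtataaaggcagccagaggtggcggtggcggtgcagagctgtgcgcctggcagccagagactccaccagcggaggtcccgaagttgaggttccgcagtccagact
Of the 52 members, 36 matched a listed promoter. A TCF motif was in 4 of the 36 (11.1%): *Dkk1*, with 2, and *Fzd7*, *Wnt11* and *Wnt3*, with 1 each. Among all 27025 listed promoters 16.9% held one. The core letters bound by SOX factors, ACAAT on either strand, were in 4 of 36 members (11.1%) and in 31.6% of all. Members had a median GC content of 71.0%, against 52.7% for all, and both motifs are rich in A and T. A match is a description of the letters only.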

How the data were processed

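Single-cell profiles of WT and *Sox17* KO endocardium were read from 8 one-colour arrays. As deposited by the authors, each array's file is scanner output (Agilent Feature Extraction 12.0.2.2, array design 028005, probes placed on mm9), in which the intensity of each spot had been background-subtracted and detrended within the array and not normalized between arrays. Here, control and outlier spots were dropped, repeat spots were averaged, and on all arrays 55295 of 55681 probes were usable. The 386 others held no member. Arrays were scaled to a common 50th percentile (109 to 427 before scaling), taken over the 7570 probes that passed the background call on each of them, floored at 50 and log2-transformed. No probe was saturated.

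Values in every cell are given for members detected in at least 5 cells or in all 4 cells of a genotype, at least 5-fold apart, or not overlapping (14 genes). Of other pathway genes, those at least 5-fold apart or detected in all 8 cells are named. Outside this rule, *Tle1* and *Tle4* are named as relatives of *Tle3*, *Cby1* as close to 5-fold, and some target genes by their list. Members, lists and alternatives were chosen with earlier results of these data known. The scaling, floor, difference and overlap steps were run on simulated arrays. These had no lost transcripts and less spread than the members (median pooled SD 1.02). Detection and probe choice were not tested there. Python 3.11.15, numpy 2.4.6, pandas 2.3.3, R 4.3.3 with limma 3.58.1 (normexp) and matplotlib 3.10.9 were used. With 8 arrays, precision is set by their number.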

Additional observations from a re-analysis of the deposited data

Results flagged for a closer look

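For the 14 genes given in full, and for the number of members detected per cell, each group of 4 cells that was not wholly at the floor was searched for a cell far from the others, by the gap to its nearest neighbour as a share of the range of the 4 cells. Of 23 groups, 6 passed Dixon's critical value for 4, and 5 of the 6 held cells at the floor. The 1 in 20 that chance gives holds for values without a floor, so the count of 6 is not read against it. In all 6 the cell stood above the others, and in 3 of them the other cells lay at the floor, which makes the share 1 by construction. *Wnt11* in WT cell 4 (1), *Dvl2* in WT cell 2 (1) and *Sfrp5* in KO cell 2 (1) were of this kind. *Wnt4* in KO cell 3 had a share of 0.967, with a value of 13.67 against at most 5.91 in the other KO cells. *Axin1* in WT cell 2 had a share of 0.901, at 9.01 against at most 5.98. *Wnt1* in KO cell 1 had a share of 0.878, at 11.57 against at most 10.18. The cause was not tested.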

How the results depend on the processing

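Each count below was set against scaling, background correction, floor, probe choice, detection and leaving out each cell. Members at least 5-fold higher in KO numbered 1 (*Dvl2*) with normexp and 1 (*Dvl2*) with a floor of 10. Members at least 5-fold lower numbered 1 (*Tcf7*) with the percentile of all probes, with the floor before scaling and with a floor of 10. Members without overlap, lower in KO, numbered 1 (*Tcf7l2*) with the 75th percentile. Leaving out each cell gave 0 to 1 members at least 5-fold higher and 0 to 2 lower, and 0 to 1 without overlap in either direction. Of the other pathway genes, those at least 5-fold higher numbered 0 with the 75th percentile and with a floor of 200, and 1 with the percentile of all probes, quantile normalization and the floor before scaling, and 0 to 3 without each cell. Those at least 5-fold lower numbered 8 with a floor of 10, 2 with a floor of 200, and 2 to 7 without each cell. Counted as positive and significant over background, 23, 33, 29 and 31 members were detected over WT cells 1 to 4. KO cells 1 to 4 had 26, 24, 33 and 25, so the genotypes overlapped, with a median of 30 for WT and 25.5 for KO. How far array depth set this gap was not tested. The median difference over members kept to within the spread between cells throughout. Of 357 values of single genes, 348 moved by less than the SD between cells and 13 changed sign, in *Ctnnb1*, *Wnt4* and *Axin1*. The 357 include *Fzd5*, *Wnt5a* and *Wnt5b*, at the floor in all cells. Their differences left 0.00 only with normexp and a floor of 10, and stayed there otherwise through the floor. *Ctnnb1* went from 0.19 to -0.20 with the 75th percentile, which moved the median of genes above the floor in all cells by -0.39, and to -0.18 with quantile normalization (-0.17), so that its direction is not settled. The cause was not tested. No paired analysis was possible because a genotype counted as 1 sample, no comparison of genotypes comes from a test, and the shared replicate numbers name cells and not embryos. Detection near background limits every dim member.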
